A study of Mus musculus with 9 samples.

Results

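The genes described here encode the translation initiation factors (symbols starting with Eif) and elongation factors (symbols starting with Eef) of the mouse, measured in liver macrophages. Members were taken by symbol, leaving out the eIF2 kinases (Eif2ak). Of the 59445 rows deposited, 63 met that rule, and 60 of them had a normalized value of at least 10 in at least 4 of the 9 libraries. The other 3 rows (Eif4e1b, Eef1a2, and Mettl21b with Eef1akmt3) were at 0 in all 9 libraries. Filtering kept 15288 rows of the whole table, and 4 of the kept members share their row with another symbol (Eif3j1 with Eif3j2, Eif4ebp3 with Ankhd1, Eif4e3 with Foxp1, Eef1akmt4 with Ece2), so that their reads cannot be assigned to either gene.

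Translation starts when eIF2 brings the initiator tRNA to the small ribosomal subunit, eIF3 holds the parts together, and the eIF4 factors bind the mRNA cap and unwind the leader. The ribosome then scans to a start codon, the initiation factors leave, and the large subunit joins. After that eEF1A delivers each aminoacyl-tRNA and eEF2 moves the ribosome along. In macrophages, translation is controlled largely at initiation, through phosphorylation of eIF2 and through the proteins that hold back eIF4E.

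RNA was sequenced from F4/80+ CD11b+ macrophages, isolated by cell sorting from liver non-parenchymal cells. All mice were male C57BL/6, and all had received a single intraperitoneal dose of carbon tetrachloride (CCl4, a hepatotoxin, 0.6 mg/kg as labelled) 24 hours earlier, controls included. The 4 MAGL fl/fl controls (libraries S1, S3, S4, S5) were 11 weeks old. Of the 5 MAGL Mye-/- mice, S8 and S12 were 11 weeks old and S9, S10 and S11 were 10 weeks old. Mgll encodes MAGL, the enzyme monoacylglycerol lipase, and what drives its deletion in Mye-/- mice is not given in the sources used here. Values per library are listed in the order S1, S3, S4, S5 for fl/fl and S8 to S12 for Mye-/-. Each library is taken as 1 mouse, and if libraries shared a mouse the p-values would measure technical spread only.

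Libraries held 33383559 to 46489349 reads. Mgll was too low to check the labels: it lay at 0 to 106 normalized reads in fl/fl and at 0 to 46.6 in Mye-/- (two-sided exact permutation p = 0.730, n = 4 and 5). Mitochondrial genes took 3.49% to 9.45% of reads, the most in fl/fl S3. Markers of other cells differed between the groups. All 5 erythroid markers were lower in Mye-/-, where their summed level was 2344 to 6567 normalized reads against 5525 to 35097 in fl/fl (at most 14503 besides S3), and 3 of them passed with DESeq2. All 9 tested hepatocyte markers were higher on the log2 scale, none past the threshold. Their sum was 12205 in Mye-/- S10 alone, 1375 to 2207 in the other Mye-/- libraries and 608 to 1990 in fl/fl. All 4 tested Kupffer cell markers were also higher, with a sum of 1821 in S10, 205 to 704 in the other Mye-/- libraries and 7.16 to 464 in fl/fl. Neutrophil markers summed to 12184 to 33551 in Mye-/- and 24504 to 45050 in fl/fl, sums carried by S100a8 and S100a9, which were lower in mean. The other markers of these cells were low, and Ly6g, which defines these cells, was near 0. Higher in mean in Mye-/- were Retnlg (181 against 161), Mpo (135 against 53.6), Elane (57.4 against 26.8), Ngp (50.8 against 3.77) and Camp (43.3 against 0). Each of them was at 0 in some libraries of both groups, and the limma log2 fold change of Mpo was -1.21. Endothelial markers summed to 277 to 465 in Mye-/- and 286 to 845 in fl/fl, B cell markers to 71.6 to 166 and 137 to 176, T and NK cell markers to 18.8 to 334 and 0 to 203, and stellate markers to 0 to 50.4 and 0 to 208 with Lrat at 0 throughout. Of the 6 macrophage markers 4 were higher and 2 lower. Adgre1 and Itgam, the genes of the sort, had limma adjusted p = 0.581 and 0.955. Csf1r, Cd68 and Ctss had log2 fold changes of 0.19, 0.0032 and -0.088. Lyz2, which shares its row with Lyz1, was lower in all 5 Mye-/- libraries (DESeq2 adjusted p = 8.13e-05). The macrophage sum, to which Lyz2 gave the most reads, was 305113 to 385658 in Mye-/- and 406073 to 577353 in fl/fl. The part of these markers in the results on translation factors was not tested, and in sorted bulk cells a change in cell make-up and a change in RNA per cell cannot be told apart.

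Together the 60 members took 1.88% ± 0.0976 (SD, n = 4) of fl/fl reads and 1.82% ± 0.0495 (SD, n = 5) of Mye-/- reads. The most abundant was Eef1a1, the carrier of aminoacyl-tRNA, with 0.678% ± 0.0442 and 0.664% ± 0.0381 of all reads. On normalized reads per kilobase of exon (GENCODE M21 exon union, 56 members with a row of their own, mean of 9 libraries), Eef1a1 stood at 103095, followed by Eef2, the translocase, at 27032. Eef1b2, a subunit of the exchange factor of eEF1A, and Eif1, which guards the choice of start codon, came next at 11235 and 11157 per kilobase, and their libraries overlapped. The lowest level per kilobase was 27.0, for Eef2k, the kinase that inhibits eEF2. Levels spanned several orders of magnitude, as the plot of levels per kilobase shows. On its log axis the genotype means of most genes lay close together. Eef1a1, Eif5a and Eif1 have processed copies elsewhere in the genome, and how reads that match several copies were counted is not stated here, which makes their levels uncertain.

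**Figure D1:**
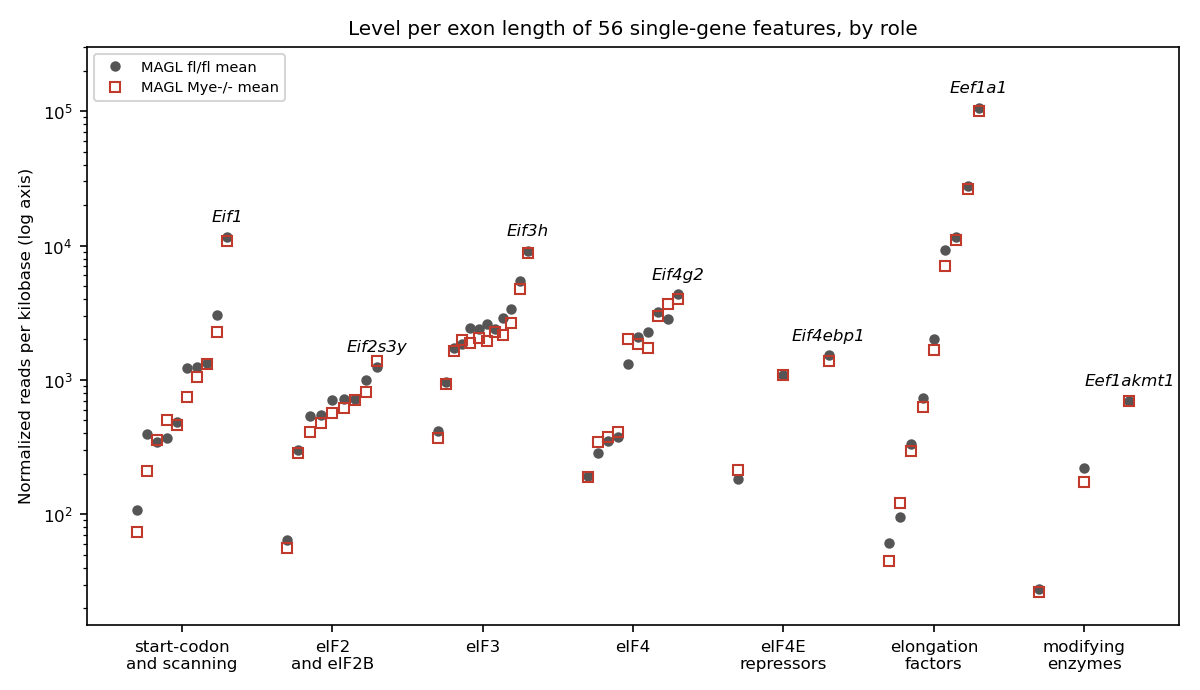
Normalized reads per kilobase of exon (log axis) of the 56 members with a row of their own, grouped by role, with filled circles for the fl/fl mean and open squares for the Mye-/- mean. Eef1a1, at 103095 over all libraries, stands above every other member, and the circle and square of most members nearly coincide.

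The comparison asks how transcripts of the translation machinery differed between macrophages of MAGL Mye-/- and of fl/fl mice after the same injury. With limma on log2(normalized value + 1) and adjustment over 15288 features, 0 of the 60 members passed an adjusted p of 0.05, against 0.0196% of all features. At an unadjusted p under 0.05 there were 11 members with limma (background 10.5%), of which 3 were higher in Mye-/- (background 6.38%) and 8 lower (background 4.13%). Features with a mean of at least 500 reads are the closer background, since 55 members are of that kind, and there 14.9% of features passed that p, 7.75% higher and 7.18% lower. On whole reads recovered from the table, DESeq2 called 3 members (background 0.955%), 12 at an unadjusted p under 0.05 (background 8.87%). Those 3 were Eif4a1, higher (background 0.595%), and Eif5b and Eif6, lower (background 0.360%). edgeR called 0 (background 0.0131%), with 12 at an unadjusted p under 0.05 (background 8.02%).

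Of the 60 members 46 were lower and 14 higher in Mye-/-, while 54.6% of all features were higher and 45.4% lower. Among features with a mean of at least 500 these shares were 49.8% and 50.2%, against 12 and 43 of the 55 members. The median log2 fold change was -0.10 over the members, 0.06 over all features tested and -0.0014 over the 7198 features with a mean of at least 500. The members' median level in a library, centred on each member's mean, had an SD of 0.0595 between libraries of the same genotype. Of the 9 libraries, fl/fl S1 moved the count most when left out. It held the highest value of 21 of the 60 members (35%), and of 23.4% of features with a mean of at least 500. Without fl/fl S1, 39 members were lower and 21 higher, and without both S1 and S3 (chosen once values were known) the median was -0.06 with 40 lower. With age as a covariate 42 were lower and 3 members had an unadjusted p under 0.05. The shares of all features in these fits are not given here, so these counts have no background of their own. The median log2 fold change over all features was 0.049 without S1, 0.017 without both S1 and S3, and 0.068 with age as a covariate.

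**Figure D2:**
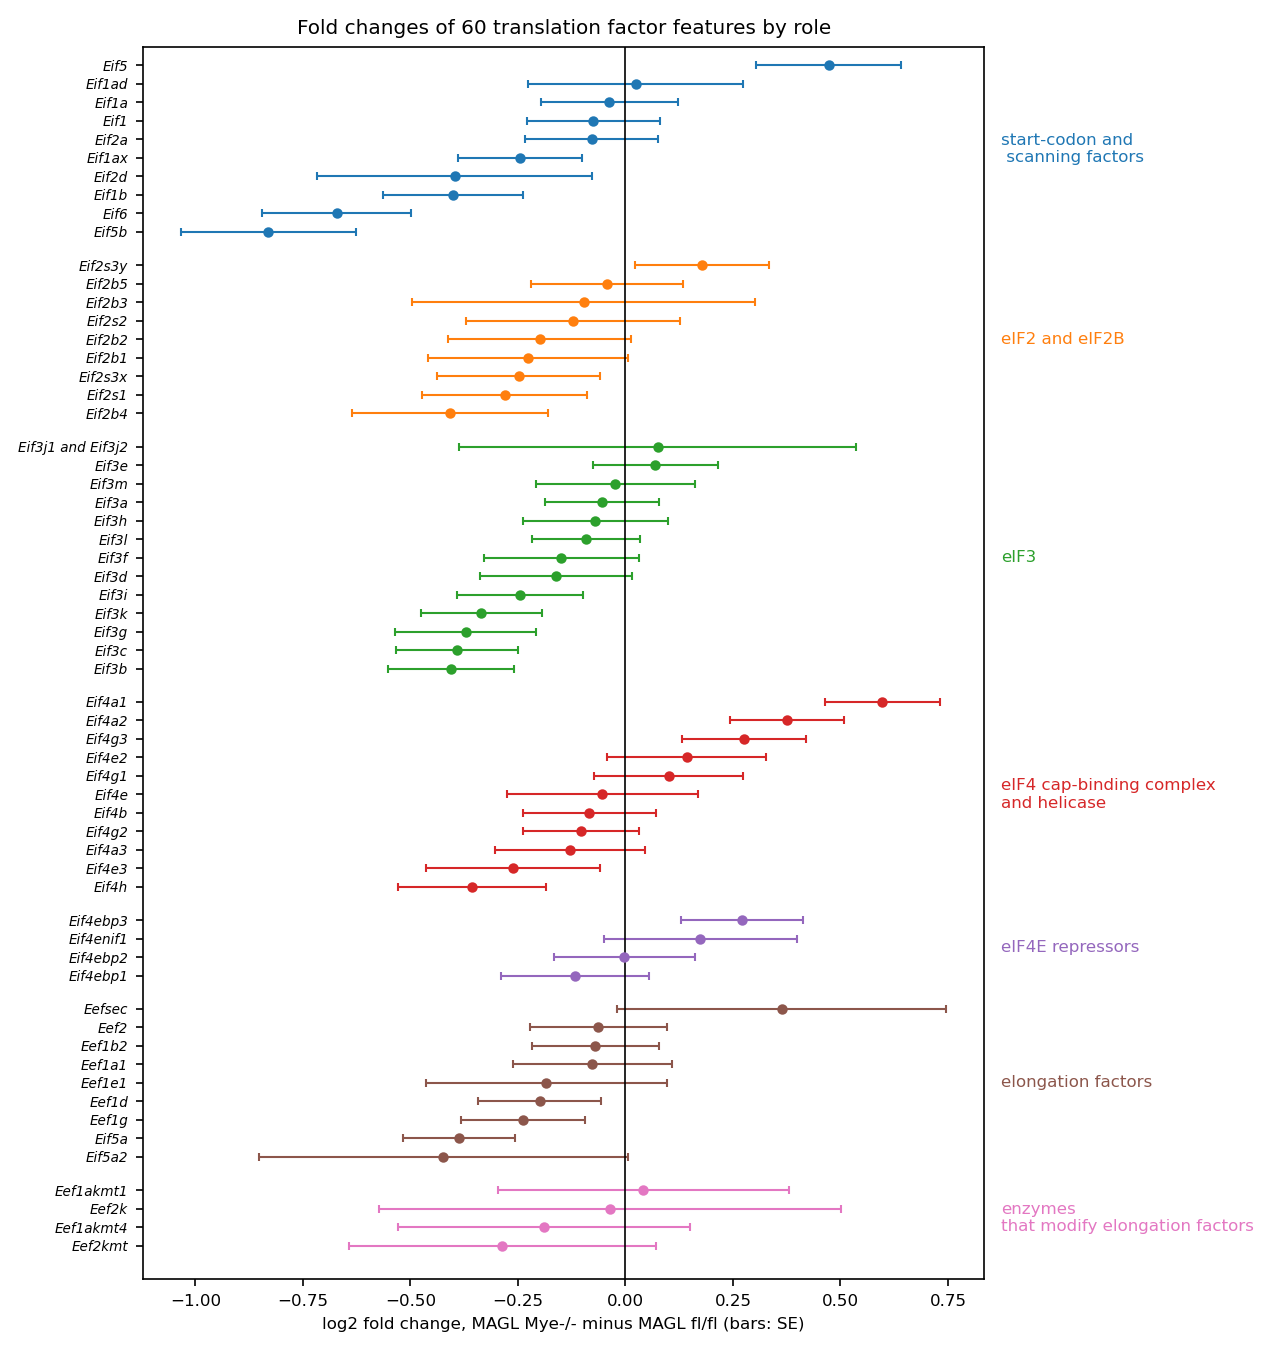
Log2 fold change of each of the 60 members, MAGL Mye-/- minus MAGL fl/fl, on the log2(normalized reads + 1) scale, ordered within roles, with bars for the standard error from limma. Most points lie left of 0, 46 against 14, with Eif5b and Eif6 farthest to the left and Eif4a1 farthest to the right.

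**Figure D3:**
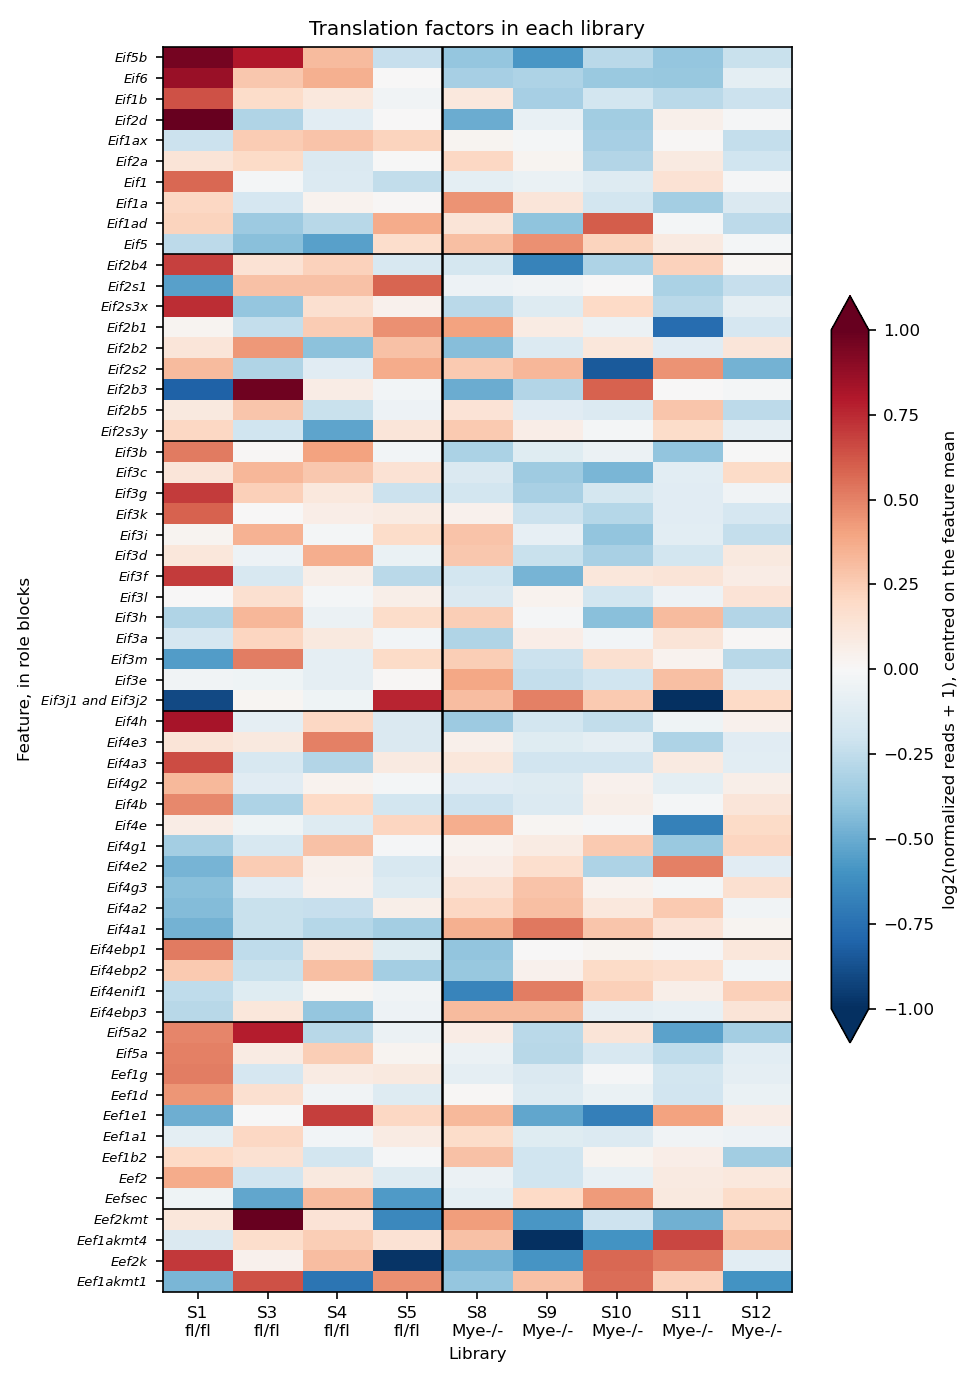
Log2(normalized reads + 1) of each member in each library, centred on the member's mean over 9 libraries, with roles separated by horizontal lines and the genotypes by the vertical line. The column of fl/fl S1 holds the highest value of 21 members, and S12 of none. Among features with a mean of at least 500, S1 is highest for 23.4% and S12 for 6.92%.

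Promoters of 3 members are shown because those members stand at the ends of the range: Eif5b had the largest difference downward, Eif4a1 the largest upward, and Eif4a2, the close relative of Eif4a1, was also higher. Each is the 250 bases before the transcript start (RefSeq, GRCm38.p6, strand of the gene), from chr1:37997760-37998009 (+) for Eif5b, chr11:69672424-69672673 (-) for Eif4a1 and chr16:23107218-23107467 (+) for Eif4a2. Capitals mark CACGTG, the E-box, a motif that basic helix-loop-helix factors such as MYC can bind. It is its own reverse complement, so both strands were searched at once.
Eif5b: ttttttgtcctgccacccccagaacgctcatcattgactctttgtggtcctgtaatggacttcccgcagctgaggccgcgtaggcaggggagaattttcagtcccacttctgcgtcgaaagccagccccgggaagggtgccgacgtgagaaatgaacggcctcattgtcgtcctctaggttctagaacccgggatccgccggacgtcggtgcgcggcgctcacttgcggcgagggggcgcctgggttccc
Eif4a1: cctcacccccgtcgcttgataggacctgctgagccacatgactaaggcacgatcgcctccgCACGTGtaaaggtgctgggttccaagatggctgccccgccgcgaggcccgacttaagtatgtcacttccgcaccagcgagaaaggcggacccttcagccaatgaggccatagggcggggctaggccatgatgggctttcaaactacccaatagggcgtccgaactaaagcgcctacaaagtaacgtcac
Eif4a2: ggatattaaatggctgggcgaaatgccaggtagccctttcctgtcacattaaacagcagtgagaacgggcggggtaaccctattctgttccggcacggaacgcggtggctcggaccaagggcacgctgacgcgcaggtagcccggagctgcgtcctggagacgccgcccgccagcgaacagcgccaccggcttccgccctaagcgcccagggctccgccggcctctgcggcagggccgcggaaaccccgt
Eif4a1 holds the motif with its first base 189 bases before the start, and the windows of Eif5b and Eif4a2 do not hold these letters. A promoter window was found for 47 of the 61 member symbols. Of these, 12 (25.5%) held an E-box, against 10.2% of the 9041 tested genes with a window. The share was 10.9% of tested genes with a mean of at least 500 and 6.86% of all 27025 genes with a window. A gene with several windows was counted once if any held the motif, and Eif5a had 6 windows. The 12 were Eif1b, Eif3f, Eif3k, Eif4a1, Eif4e, Eif4g1, Eif4h, Eif5a, Eif5a2, Eef2, Eef2k and Eef1akmt4, of which 2 were higher in Mye-/- and 10 lower. Of 34 members with a window but no E-box (leaving out the row of Eif3j1 and Eif3j2), 8 were higher and 26 lower. The cAMP response element TGACGTCA, likewise its own reverse complement, was in 0 of the 47 and in 3.17% of tested genes.

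Among the 10 features grouped as start-codon and scanning factors, 8 were lower and 2 higher in Mye-/-. DESeq2 called Eif5b and Eif6, which were placed in this group though they act when the ribosomal subunits join. Eif5b (chromosome 1, 37998009 to 38055579, mm10) encodes the GTPase that joins the ribosomal subunits. Its normalized reads were 5153, 4622, 3317 and 2269 in fl/fl and 2030, 1776, 2208, 2037 and 2274 in Mye-/-. The Mye-/- libraries lay close together and the fl/fl libraries spread widely, with fl/fl S5 inside the Mye-/- values. Means were 3840 ± 1301 (SD, n = 4) against 2065 ± 193 (SD, n = 5), for a log2 fold change of -0.83 ± 0.20 (SE, limma adjusted p = 0.218, DESeq2 adjusted p = 0.0151, edgeR adjusted p = 0.231). The highest libraries were S1 and S3, and S4 also lay above every Mye-/- library. Without S1 and S3 the log2 fold change was -0.41 (limma adjusted p = 0.547), and without S5 it was -1.06 and passed (limma adjusted p = 0.0305). The gene overlaps exons of Rev1 on the opposite strand, and since the strand setting of the counting was not given their reads cannot be told apart. Of the members listed by library, the same holds for Eif6 with Gm16098, Eif1b with D830035M03Rik and Eif4a2 with Rfc4. Further members overlap exons of another gene too, among them Eef1b2 with Ndufs1, Eif3m with Ccdc73, Eif2a with Serp1 and Eef2k with Gm15774. Eef1d overlaps Naprt on the same strand.

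Eif6 (chromosome 2, 155819837 to 155826925) encodes the factor that keeps the large subunit from joining too early, and so acts at the same step as eIF5B. It was at 4537, 2999, 3179 and 2495 normalized reads in fl/fl, against 1980, 2012, 1920, 1911 and 2322 in Mye-/-. No Mye-/- library reached the lowest fl/fl library. The mean was 3303 ± 872 (SD, n = 4) in fl/fl against 2029 ± 169 (SD, n = 5) in Mye-/-, with a log2 fold change of -0.67 ± 0.17 (SE, limma adjusted p = 0.218, DESeq2 adjusted p = 0.0371). Without S1 and S3 it was -0.48 (limma adjusted p = 0.435). Over all members the groups did not overlap in 3: Eif4a1 was higher (background 1.70% of all features, 2.01% of those with a mean of at least 500), and Eif6 and Eif5a were lower (background 1.60% and 2.65%).

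Eif5 (chromosome 12, 111538101 to 111546753) encodes the activator of GTP hydrolysis by eIF2 at the start codon, and leaned the other way. Its values were 2473, 2222, 2030 and 3349 in fl/fl and 3663, 4072, 3458, 3148 and 2925 in Mye-/-. Only fl/fl S5 reached into the Mye-/- range. The mean was 2519 ± 582 (SD, n = 4) against 3453 ± 447 (SD, n = 5), for a log2 fold change of 0.47 ± 0.17 (SE, limma adjusted p = 0.332, DESeq2 adjusted p = 0.337).

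Eif1 and its paralogue Eif1b both encode eIF1-type proteins. Eif1b was at 4493, 3271, 3111 and 2810 normalized reads in fl/fl, against 3105, 2298, 2543, 2397 and 2479 in Mye-/- (log2 fold change -0.40 ± 0.16 SE, limma adjusted p = 0.405). Only Mye-/- S8 reached into the fl/fl range. Eif1 was at 34323, 22756, 20988 and 19497 in fl/fl and 21607, 22000, 21078, 25518 and 22898 in Mye-/- (log2 fold change -0.08 ± 0.16 SE, limma adjusted p = 0.894). It was high in fl/fl S1 alone, and without S1 its log2 fold change was 0.10. Of the partners in scanning, Eif1ax was at 6542 ± 972 (SD, n = 4) and 5496 ± 610 (SD, n = 5), Eif1a at 5525 ± 587 and 5466 ± 1243, and Eif2a, an alternative carrier of initiator tRNA, at 2970 ± 305 and 2824 ± 401, with limma adjusted p from 0.560 to 0.956.

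**Figure D4:**
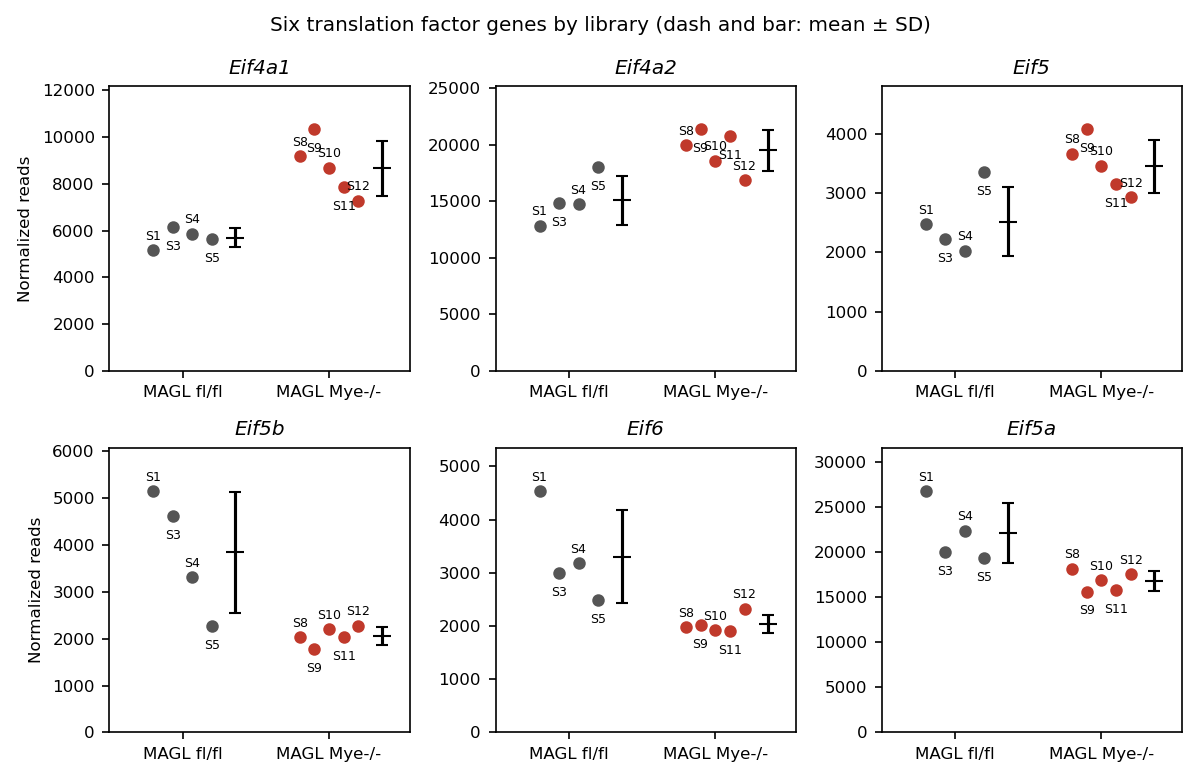
Normalized reads of 6 members in each library (points, S1 to S5 fl/fl and S8 to S12 Mye-/-), with the dash and bar giving mean ± SD. Eif4a1 is higher in all 5 Mye-/- libraries (7279 to 10318) than in any fl/fl library (5149 to 6135), Eif6 and Eif5a are lower in all 5, and fl/fl S5 lies among the Mye-/- values for Eif5b, Eif4a2 and Eif5.

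The 9 genes of eIF2, the tRNA carrier, and of its exchange factor eIF2B had 8 members lower and 1 higher. Log2 fold changes ran from -0.41 to 0.18, and 0 had an unadjusted p under 0.05 with limma (background 10.5% of all features). The most abundant per kilobase was Eif2s3y, the Y-linked gene of the gamma subunit, at 1330. It was at 6323, 4757, 3803 and 5948 normalized reads in fl/fl, against 6554, 5722, 5391, 6193 and 5129 in Mye-/- (log2 fold change 0.18 ± 0.16 SE, limma adjusted p = 0.721). The groups overlapped widely. Its X-linked partner Eif2s3x was at 3822 ± 1267 (SD, n = 4) and 3115 ± 430 (SD, n = 5), and Eif2s1, the alpha subunit that stress kinases phosphorylate, at 3522 ± 1033 and 2799 ± 265 (limma adjusted p = 0.678 and 0.630). The catalytic subunit of eIF2B, Eif2b5, was at 1882 ± 279 and 1830 ± 288.

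Of the 13 features of eIF3, the scaffold that recruits the small subunit, 11 were lower and 2 higher. With limma 4 had an unadjusted p under 0.05, all lower. In that direction the background was 4.13% of all features and 7.18% of those with a mean of at least 500. Eif3b was at 11632, 8174, 10713 and 7973 normalized reads in fl/fl and 6515, 7451, 7782, 6180 and 8105 in Mye-/-. Eif3c was at 8029, 9290, 8905 and 8169 in fl/fl and 6690, 5782, 5370, 6851 and 8425 in Mye-/-. For both, fl/fl was the higher group, with Mye-/- S12 reaching into its range. Their log2 fold changes were -0.41 ± 0.15 and -0.39 ± 0.14 (SE, limma adjusted p = 0.337 for each). Means were 9623 ± 1830 against 7207 ± 826 for Eif3b and 8598 ± 600.3 against 6624 ± 1181 for Eif3c. With age as a covariate the log2 fold change was -0.39 for Eif3b and -0.19 for Eif3c (limma adjusted p = 0.938 for each).

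Eif3k, a peripheral subunit, was at 11963, 7953, 8316 and 8406 normalized reads in fl/fl and 8179, 6834, 6503, 7331 and 7067 in Mye-/- (log2 fold change -0.33 ± 0.14 SE, limma adjusted p = 0.428). Eif3g, an RNA-binding subunit, was at 7035, 5134, 4673 and 3739 in fl/fl and 3833, 3463, 3853, 4025 and 4239 in Mye-/- (log2 fold change -0.37 ± 0.16 SE, limma adjusted p = 0.444). In both genes S1 was the highest library, and without it the log2 fold changes were -0.20 for Eif3k and -0.21 for Eif3g. Eif3h had the highest level per kilobase of the complex, 8946, at 11536, 17820, 13614 and 16076 reads in fl/fl and 16825, 14057, 10634, 17630 and 11602 in Mye-/- (log2 fold change -0.07 ± 0.17 SE, limma adjusted p = 0.911). The groups overlapped throughout, and the sign turned without fl/fl S3 or without Mye-/- S10. The remaining 8 features of eIF3 had log2 fold changes from -0.25 for Eif3i to 0.08 for the row of Eif3j1 and Eif3j2.

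Subunits of eIF3 did not keep a fixed ratio between libraries. In fl/fl S1, Eif3f was at 23101 normalized reads against 10325 to 15621 in the other 8 libraries, while Eif3m was at 4012 against 4879 to 8421. In the same library Eif3b, Eif3g and Eif3k were at their highest, and Eif3m at its lowest, so S1 did not differ from the rest by a common factor.

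Of the 11 features of the cap-binding complex and its helicase, 5 were higher and 6 lower, and the helicase genes led the higher ones. Eif4a1 (chromosome 11, 69666936 to 69672423) encodes eIF4A1, the RNA helicase that unwinds mRNA leaders. It was at 5149, 6135, 5864 and 5641 normalized reads in fl/fl, against 9164, 10318, 8685, 7860 and 7279 in Mye-/-. The lowest Mye-/- library was above the highest fl/fl library, and S1 was the lowest of all. The mean was 5697 ± 417 (SD, n = 4) in fl/fl against 8661 ± 1178 (SD, n = 5) in Mye-/-, 52.0% higher, a log2 fold change of 0.60 ± 0.13 (SE, limma adjusted p = 0.175, DESeq2 adjusted p = 0.00290, edgeR adjusted p = 0.231). Leaving out 1 library at a time gave 0.53 to 0.66, and leaving out S1 and S3 gave 0.58. With age as a covariate it was 0.52 (limma adjusted p = 0.938). Eif4a1 holds 3 small RNA genes on its own strand, whose overlap with its exons was not checked. Apart from these, no annotated exon of another gene overlaps it. Its neighbours on the same strand are Cd68, at 12847 ± 1221 and 12901 ± 1546 (log2 fold change 0.00 ± 0.13 SE), and Senp3, a SUMO protease, at 2127 ± 416 and 2885 ± 299 (log2 fold change 0.46 ± 0.17 SE, limma adjusted p = 0.343), which was also higher in all 5 Mye-/- libraries.

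Eif4a2 (chromosome 16, 23107468 to 23114136) encodes the second eIF4A helicase. It was at 12828, 14809, 14720 and 17993 normalized reads in fl/fl, against 19933, 21350, 18578, 20731 and 16882 in Mye-/-. Mye-/- was the higher group, with only S12 below fl/fl S5. The log2 fold change was 0.38 ± 0.13 (SE, limma adjusted p = 0.332), from 15087 ± 2142 (SD, n = 4) to 19495 ± 1791 (SD, n = 5). Eif4h, a partner that stimulates eIF4A, was at 18889, 9998, 12273 and 9620 in fl/fl and 8278, 9359, 8999, 10356 and 10950 in Mye-/- (log2 fold change -0.36 ± 0.17 SE, limma adjusted p = 0.477). It was high in S1, and without S1 the log2 fold change was -0.15. The other partner of the helicase, Eif4b, was at 14373 ± 3646 and 13288 ± 1230, and Eif4a3, the relative that sits in the exon junction complex, at 4430 ± 1386 and 3936 ± 410.

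Eif4g1, the scaffold between cap and ribosome, was at 2079, 2356, 3233 and 2612 normalized reads in fl/fl and 2698, 2784, 3168, 2038 and 3066 in Mye-/- (log2 fold change 0.10 ± 0.17 SE, limma adjusted p = 0.870). Eif4g2, the relative that lacks the eIF4E-binding site, was at 52624, 38896, 43139 and 41567 in fl/fl and 38997, 38526, 43415, 39313 and 43922 in Mye-/- (log2 fold change -0.10 ± 0.13 SE, limma adjusted p = 0.823). Neither separated the groups, and the sign of Eif4g1 turned (-0.10) without S1 and S3. Eif4g3, a further scaffold, was at 3148 ± 407 (SD, n = 4) and 3795 ± 314 (SD, n = 5), with limma adjusted p = 0.513. Eif4e, the cap-binding protein itself, was at 1163 ± 120 (SD, n = 4) and 1147 ± 278 (SD, n = 5). Per kilobase, Eif4g2 was the most abundant of these genes at 4158, against 366 for Eif4g1 and 192 for Eif4e.

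Of the 4 features of eIF4E repressors 2 were higher and 2 lower, 0 of them at an unadjusted p under 0.05 with limma (background 10.5%). Eif4ebp1 and Eif4ebp2 encode proteins that sequester eIF4E until mTOR phosphorylates them. Eif4ebp1 was at 4489, 2633, 3411 and 2876 normalized reads in fl/fl and 2382, 3153, 3201, 3104 and 3392 in Mye-/- (log2 fold change -0.12 ± 0.17 SE, limma adjusted p = 0.841). Eif4ebp2 was at 7435, 5321, 7627 and 4897 in fl/fl and 4764, 6388, 7063, 6960 and 6070 in Mye-/- (log2 fold change -0.0025 ± 0.16 SE, limma adjusted p = 0.997). Both overlapped fully between the groups, and for both the sign turned without fl/fl S1. Eif4enif1, which carries eIF4E into the nucleus and to processing bodies, was at 1169 ± 93.7 (SD, n = 4) and 1362 ± 363 (SD, n = 5). The row that Eif4ebp3 shares with Ankhd1 was at 9302 ± 1464 and 11205 ± 1532 (limma adjusted p = 0.520).

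A ratio of 2 related genes within a library does not depend on that library's scaling, and 4 pairs were compared. The log2 ratio of Eif4a1 to Eif4a2 was -1.40 ± 0.19 (SD, n = 4) in fl/fl against -1.18 ± 0.14 (SD, n = 5) in Mye-/-, a difference of 0.22 (exact two-sided permutation p = 0.0952, or 0.190 when adjusted over the 4 pairs). Eif1 to Eif1b was at 2.82 ± 0.0783 and 3.15 ± 0.23, a difference of 0.33 (exact permutation p = 0.0317, adjusted p = 0.127), with 1 Mye-/- library, S8, among the fl/fl values. Eif4ebp1 to Eif4ebp2 differed by -0.12 (exact permutation p = 0.333, adjusted p = 0.413) and Eif4g1 to Eif4g2 by 0.20 (exact permutation p = 0.413, adjusted p = 0.413). No pair passed after adjustment, and with fl/fl S1 left out the Eif4g difference was 0.02.

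**Figure D5:**
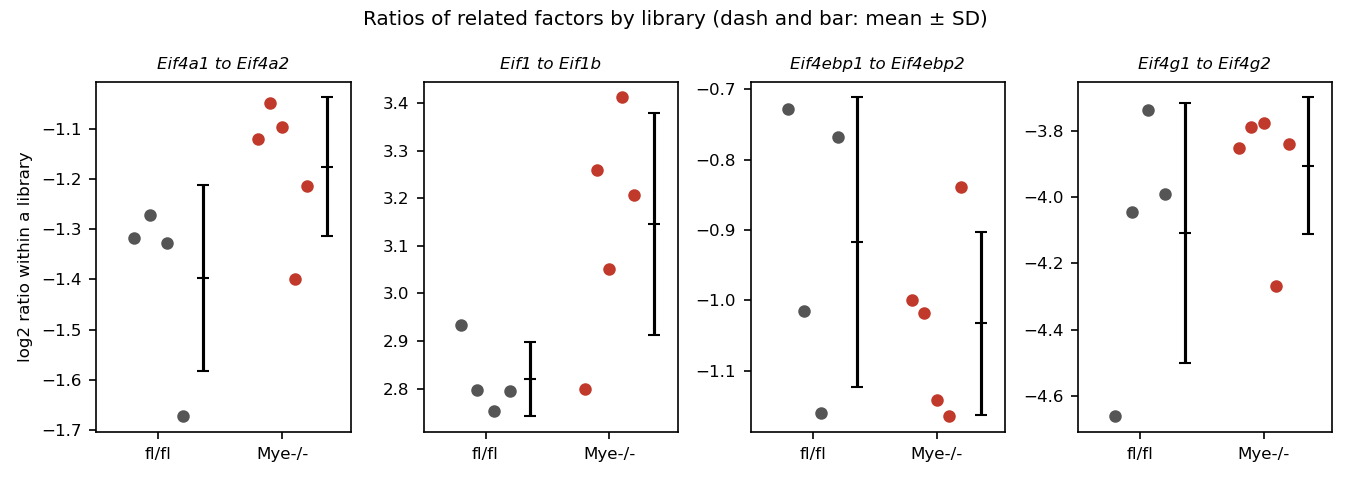
Log2 ratio of 4 pairs of related genes within each library (points), fl/fl in grey and Mye-/- in red, with the dash and bar giving mean ± SD. Each panel has its own axis, which does not start at 0. The ratio of Eif1 to Eif1b separates the groups except for S8, and fl/fl S1 lies lowest for Eif4g1 to Eif4g2.

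Among the 9 features grouped as elongation factors, Eef1e1 included by its symbol alone, 8 were lower and 1 higher. With limma 1 had an unadjusted p under 0.05 (background 10.5% of all features). That was Eif5a (chromosome 11, 69916714 to 69921958), whose product carries the amino acid hypusine and keeps ribosomes from stalling. It was at 26813, 20069, 22400 and 19331 normalized reads in fl/fl and 18180, 15648, 16890, 15834 and 17542 in Mye-/-. The highest Mye-/- library was below the lowest fl/fl library. The mean was 22153 ± 3370 (SD, n = 4) against 16819 ± 1087 (SD, n = 5), for a log2 fold change of -0.39 ± 0.13 (SE, limma adjusted p = 0.319, DESeq2 adjusted p = 0.0655), and -0.29 without S1.

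Eef1a1 was at 239695, 296273, 251558 and 271057 normalized reads in fl/fl and 290561, 234945, 232479, 249630 and 246954 in Mye-/- (log2 fold change -0.08 ± 0.18 SE, limma adjusted p = 0.911). The groups overlapped, and the sign turned (0.02) with quantile normalization and with age as a covariate. Its exchange-factor subunits were lower by small amounts: Eef1g was at 5217 ± 1049 (SD, n = 4) and 4365 ± 195 (SD, n = 5), Eef1d at 4740 ± 860 and 4084 ± 212, and Eef1b2 at 29115 ± 3475 and 27913 ± 4778. Eef2 was at 92503 ± 16896 and 87736 ± 7566. None of these 4 passed the test (limma adjusted p from 0.577 to 0.915). Eefsec, which delivers selenocysteine, was the only higher member of this role, at 269 ± 80.7 and 338 ± 44.4 (limma adjusted p = 0.776).

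The 4 features of enzymes that modify elongation factors had 1 higher and 3 lower. With limma 0 of them had an unadjusted p under 0.05 (background 10.5%). The most abundant per kilobase, Eef1akmt1, which methylates eEF1A, was at 453, 966, 374 and 854 normalized reads in fl/fl and 474, 762, 916, 729 and 409 in Mye-/- (log2 fold change 0.04 ± 0.34 SE, limma adjusted p = 0.978). Its libraries spread as widely within a genotype as between them. Eef2k was at 206 ± 88.5 (SD, n = 4) and 195 ± 72.9 (SD, n = 5), and Eef2kmt, which methylates eEF2, at 591 ± 287 and 462 ± 141.

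A further property that the rule did not use is whether a gene is tagged by GENCODE as a host of small RNA genes. Of the 60 members 15 are such hosts, with 6 higher and a median log2 fold change of -0.05, and the other 45 had 8 higher and a median of -0.16. All 1026 tested hosts had a median of 0.07, with 56.9% higher. Eif4a1, Eif4a2 and Eif5, the 3 members higher at an unadjusted p under 0.05, are all hosts, as are Eif3b and Eif3c among the lower ones. This property was looked at after the values were seen, and it was not tested.

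Genes that act on these factors were counted from lists of the pathway. None of them passed with limma or DESeq2. Of 11 tested genes of the integrated stress response, which acts through eIF2, 6 were higher and 5 lower (median 0.04). At an unadjusted p under 0.05 with limma there was 1 (background 10.5% of all features). That was Eif2ak2, the interferon-induced kinase PKR that phosphorylates eIF2, at 284, 365, 555 and 561 normalized reads in fl/fl and 1871, 1002, 772, 596 and 617 in Mye-/-. Every Mye-/- library was above every fl/fl library, by little for S11 and S12 (log2 fold change 1.05 ± 0.34 SE, limma adjusted p = 0.309). Such a separation upward held for 1.70% of all features. Atf4, the transcription factor whose translation rises when eIF2 is phosphorylated, was at 17586 ± 3981 (SD, n = 4) and 18607 ± 2608 (SD, n = 5), and its target Ddit3 at 223 ± 143 and 209 ± 110.

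Of 16 regulators of the cap-binding complex 11 were higher and 5 lower (median 0.12). Of these 16, 2 had an unadjusted p under 0.05 with limma, both higher (background 10.5% of all features, with 6.38% higher). Ddx3x, an RNA helicase that helps unwind leaders, was at 6720, 7761, 9460 and 10003 normalized reads in fl/fl and 11876, 15386, 10552, 11251 and 11702 in Mye-/- (log2 fold change 0.52 ± 0.15 SE, limma adjusted p = 0.251, DESeq2 adjusted p = 0.0626). The groups did not overlap (background 1.70% of all features in this direction). Mknk1, the kinase that phosphorylates eIF4E, was at 3039 ± 901 (SD, n = 4) and 4087 ± 695 (SD, n = 5), with overlapping groups (limma adjusted p = 0.405). Of 6 genes of termination and recycling 3 were higher and 3 lower (median 0.0038), and Denr, which helps ribosomes reinitiate, was at 1294 ± 466 and 740 ± 83.4 (log2 fold change -0.74 ± 0.25 SE, limma adjusted p = 0.326). Enzymes that make hypusine on eIF5A and diphthamide on eEF2 had 4 higher and 5 lower of 9 (median -0.07), and the multi-synthetase complex, which charges tRNAs, 2 higher and 8 lower of 10 (median -0.18). None of these 19 genes had an unadjusted p under 0.05.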

How the data were processed

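The deposited table holds a signal per gene, namely reads scaled by the authors with DESeq to 1 size factor per library, per the file headers, on a linear scale and not per length. The submitters' processing notes name STAR 2.4.0 and the mm10 build, besides FastQC, Picard and SAMtools. How reads were counted (tool, strand, duplicates) is not given in the sources used here. Every nonzero value was a whole multiple of its column's unit within 0.01 reads (100% of values), which gave back whole reads.

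The main test was limma 3.58.1 under R 4.3.3, with trended variance, on log2 of the normalized value plus 1 for 15288 features, two-sided, Benjamini-Hochberg, threshold 0.05. edgeR 4.0.16 (quasi-likelihood, 2 features called) and DESeq2 1.42.0 (146 called) were run on the whole reads. All were also run on simulated counts, with changes larger than that of any member. That run did not test how well changes of the members' size are called. Other alternatives were pseudocounts, filters, TMM, quantile normalization, no trend, age, 11-week-old mice only and leaving out libraries. Positive log2 fold changes mean higher in Mye-/-. For low genes with values of 0, limma and DESeq2 differed in either direction. The log2 fold change of Clec4f was 5.08 with limma and 3.27 with DESeq2, and that of Apoa2 was 1.55 and 3.16. Libraries held 33383559 to 46489349 reads.

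Members and lists were chosen with earlier results of these data known. Values per library are given for the 12 members with the smallest p, the 8 of the paralogue pairs and the most abundant per kilobase of each role. Eif1a was placed with the scanning factors by its function. Coordinates are those of the table (mm10), and exon lengths, overlaps and small RNA hosts come from GENCODE M21.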

Additional observations from a re-analysis of the deposited data

Results flagged for a closer look

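In 6 of 120 groups of libraries (60 members in 2 genotypes) the highest or lowest library stood apart from the others by more than the 95% limit of Dixon's gap test, and chance flags about 1 in 20 groups. Of these, 3 were fl/fl S1. S1 was highest for Eif3k, an eIF3 subunit, at 11963 normalized reads (next library 8407), and highest for Eif2d, a tRNA-delivering factor, at 1490 (next 611). It was lowest for Eif1ax, a scanning factor, at 5095 (next 6875). In Mye-/-, S12 was highest for Eif6 at 2322 (next 2012), which still lay below all fl/fl values, S8 was lowest for Eif4ebp1 at 2382 (next 3104), and S11 was lowest for the shared row of Eif3j1 and Eif3j2 at 131 (next 329).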

How the results depend on the processing

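All 21 alternatives kept the sign of the members' median log2 fold change, which ran from -0.14 to -0.08 with 1 library left out. The count of members past the threshold was 3 with DESeq2, 1 (Eif5b) without fl/fl S5 and 0 in the other 19. The count of all features, 3 with the main test, was 17 (12 higher, 5 lower) with a pseudocount of 8, 6 with TMM, 8 with quantile normalization, 21 (20 higher, 1 lower) without an intensity trend, 0 with age as a covariate, 0 in 11-week-old mice only, 146 (91 higher, 55 lower) with DESeq2 and 9 (7 higher, 2 lower) without both S1 and S3, which was added with the values known. It ran from 0 to 20 with 1 library left out: 7 without fl/fl S1, 5 without S3, 20 without S5, 0 without Mye-/- S8, 5 without S9, 0 without S10 and 1 without S11. The member count ran from 0 to 1.

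Among the 21 members listed by library, signs turned for 7, none of them at an unadjusted p under 0.05 in the main test. Without S1 and S3 the log2 fold change was 0.16 for Eif1, 0.018 for Eif4ebp2 and -0.10 for Eif4g1, and the log2 ratio of Eif4g1 to Eif4g2 differed by -0.041. For Eif4ebp2 it was 0.0063 with TMM and 0.030 with quantile normalization. For Eef1a1 it was 0.022 with quantile normalization, with age as a covariate and in 11-week-old mice. For Eef1akmt1 it was -0.47 with age as a covariate and in 11-week-old mice, -0.0011 with edgeR and -0.0088 with DESeq2. With 1 library left out the ranges were -0.17 to 0.10 for Eif1, -0.22 to 0.033 for Eif4ebp1, -0.12 to 0.10 for Eif4ebp2, -0.18 to 0.027 for Eif3h and -0.19 to 0.26 for Eef1akmt1. The cause was not tested. Age was partly tied to genotype, so the 2 cannot be fully separated. No paired analysis was possible because the groups share no replicate numbers.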
